A study of Rattus norvegicus with 10 samples.

Results

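The genes described here encode the Arp2/3 complex, which starts new actin filaments as branches on the side of existing ones, and a pair of actin regulators, the leukocyte coronin Coro1a and the filament-severing protein cofilin, Cfl1. Members were taken as every probe set of the rat array whose platform annotation lists 1 of 10 genes alone: Arpc1a, Arpc1b, Arpc2, Arpc3, Arpc4, Arpc5, Actr2, Actr3, Coro1a and Cfl1. By that rule 8 of the 10 genes were measured, by 11 of 31042 probe sets. Actr3 was listed only together with Actr3b, on 3 probe sets, and Cfl1 only together with Cfl1l1, on 1, so neither was read here. RNA came from the left ventricle of male Sprague-Dawley rats of 250 to 300 g, 3 days after gene transfer. The 5 GATA-4 samples had received the gene for the cardiac transcription factor GATA-4 and the 5 LacZ samples the bacterial beta-galactosidase gene as a control, so that all 10 had undergone a transfer. The sources used here do not state age, how the gene was delivered or where in the heart, nor whether each sample was a separate animal.

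The complex joins the actin-related proteins Arp2 (Actr2) and Arp3 (Actr3) to smaller subunits: Arpc2 and Arpc4 form its core and bind the mother filament, Arpc3 and Arpc5 complete the body, and Arpc1, made as Arpc1a or Arpc1b from separate genes, links the complex to its activators. WASP and WAVE family proteins switch it on downstream of the GTPases Cdc42 and Rac, and coronins and cofilin act on the branched network, cofilin by severing ageing filaments. Nearly every cell needs the complex, while Arpc1b and Coro1a are prominent in blood cells, where loss of either in people causes immune deficiency. In a piece of ventricle the RNA of heart muscle, vessels, fibroblasts and immune cells is mixed, and fewer cells of a type and less RNA per cell cannot be told apart.

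The stretches of DNA just before Arpc1b and Coro1a are shown first, because these genes had the widest differences of the 8. RefSeq's promoter table of build GRCr8 held a window for 9 of the 10 members, and Arpc1a was the one without. Each line gives the 250 bases before the transcript start used by that table, 5′ to 3′ on the gene's strand. Capitals mark the letters GAGGAA, a form of ETS family site bound by the leukocyte factor PU.1. Other forms of ETS site were not searched.
Arpc1b, chr12:14609489-14609738, minus strand: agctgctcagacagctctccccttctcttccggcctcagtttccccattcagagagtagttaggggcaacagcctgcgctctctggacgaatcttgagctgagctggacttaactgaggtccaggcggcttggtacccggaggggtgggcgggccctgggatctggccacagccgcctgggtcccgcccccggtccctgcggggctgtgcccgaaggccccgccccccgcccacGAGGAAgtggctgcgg
Coro1a, chr1:190731104-190731353, minus strand: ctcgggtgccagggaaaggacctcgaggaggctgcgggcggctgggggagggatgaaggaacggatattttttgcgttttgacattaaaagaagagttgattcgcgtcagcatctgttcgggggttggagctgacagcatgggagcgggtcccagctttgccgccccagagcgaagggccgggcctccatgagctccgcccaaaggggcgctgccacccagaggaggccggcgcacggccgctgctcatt
On either strand, GAGGAA occurred before Arpc1b, Arpc5 and Actr3, 3 of the 9 members with a window, and in 23.3% of all 33469 windows of that length. In Arpc1b it lay 16 to 11 bases before the start. The GATA letters AGATAA and TGATAA occurred in none of the 9 windows, against 10.3% and 7.97% of all windows, and the CArG box of serum response factor in none, against 1.5%. These windows had GC contents of 67.6% for Arpc1b and 63.2% for Coro1a, where the median of all windows was 51.2%. Arpc1a and Arpc1b are next to each other on chromosome 12 in the RefSeq table.

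Signals are given as log2 of the array intensity after quantile normalization, and a difference is the GATA-4 mean minus the LacZ mean on that scale. The words rose and fell are kept for a limma adjusted p under 0.05 over all 18625 probe sets tested. The 2%-trimmed mean intensity was 249 to 314 on the LacZ arrays, 249 to 329 on GATA-4 arrays 2 to 5 and 142 on GATA-4 array 1, and results that turn on that array are marked. GATA-4 arrays 4 and 5 have sample numbers apart from the other 8, and no batch is labelled. The transferred gene, Gata4, read 11.44 ± 0.14 against 10.65 ± 0.13 (SD, n = 5) and lay above every LacZ array on all 5 GATA-4 arrays. Heart muscle markers were bright on every array, and none of the 10 changed in limma (1 had an unadjusted p under 0.05). With median centring and without GATA-4 array 1, 4 of the 10 fell, where 1486 of 18625 probe sets did. Over the whole array 988 probe sets changed, 566 higher and 422 lower, or 322 higher and 401 lower when arrays were centred on their medians instead.

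After GATA-4 transfer 4 of the 8 measured genes had a probe set that rose, and no member fell. Coro1a rose 1.67-fold, Arpc1b 1.59-fold, Arpc2 by 1 of its 2 probe sets 1.45-fold and Actr2 by 1 of its 3 probe sets 1.32-fold. In all, 4 of the 11 member probe sets rose, where 5.3% of all probe sets tested changed and 3.04% rose. All 11 had positive differences, from 0.03 to 0.74, where 47.4% of all genes tested had one. Those of Arpc1a and the brighter Arpc2 probe set turned negative with the intensities as deposited and under median centring. Counting each gene by its brightest probe set, 2 of 8 rose, Arpc1b and Coro1a, against 3.71% of the 10688 genes tested, and the median difference was 0.29 against -0.017 over all genes. The members were chosen with earlier results of these arrays known. With the intensities as deposited, without normalization between arrays, none of the 11 passed in limma, all at adjusted p-values of 0.993 or above, and 9 probe sets of the whole array did.

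**Figure D1:**
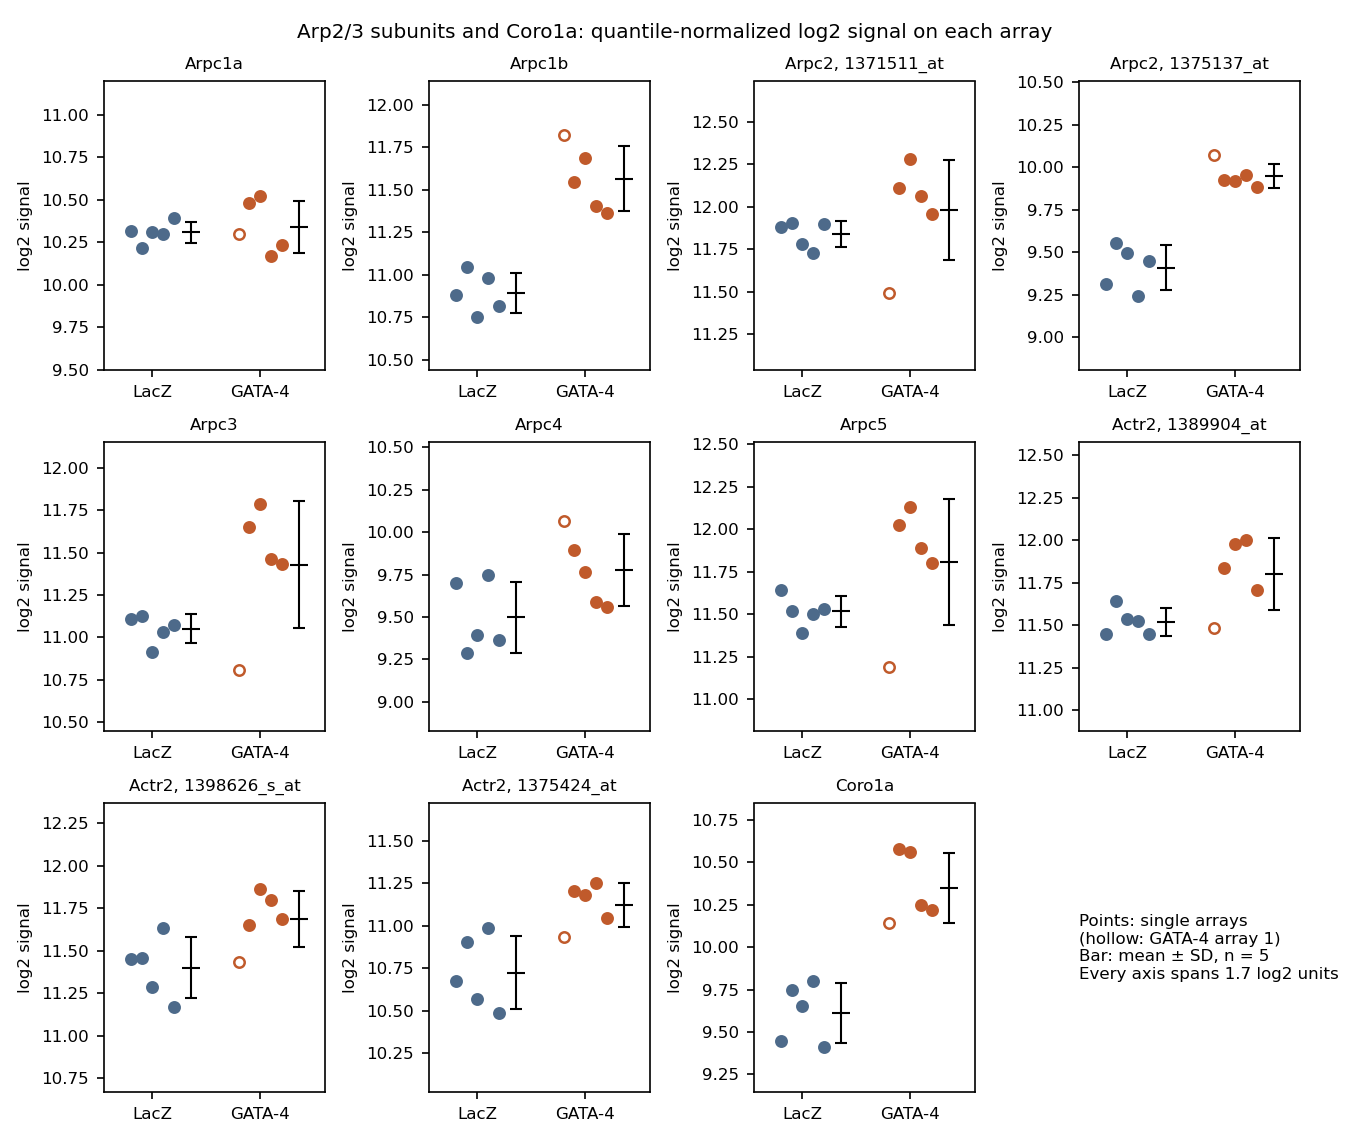
Quantile-normalized log2 signal (vertical axes, each spanning 1.7 log2 units) of the 11 member probe sets on single arrays, with the mean and SD of each group (n = 5) beside the points. The groups do not overlap for Arpc1b, Coro1a and 1 Arpc2 probe set, and the hollow GATA-4 array 1 is lowest of its group on 7 of the 11 and highest on 3.

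Arpc1b, the Arpc1 isoform prominent in blood cells, read 10.88, 11.04, 10.75, 10.98 and 10.81 on LacZ arrays 1 to 5 and 11.82, 11.55, 11.68, 11.40 and 11.36 on GATA-4 arrays 1 to 5. The groups did not overlap, and GATA-4 array 1 was the highest of all 10. The means of 11.56 ± 0.19 and 10.89 ± 0.12 (SD, n = 5 each) were 0.67 apart (SE 0.09; limma adjusted p = 0.00597). Leaving out any 1 array kept the call, with differences of 0.60 to 0.72.

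Arpc1a, the isoform of the same position in the complex, read 10.32, 10.22, 10.31, 10.30 and 10.39 with LacZ and 10.30, 10.48, 10.52, 10.17 and 10.23 with GATA-4. The GATA-4 arrays lay on both sides of the LacZ arrays. The difference was 0.03 (95% interval -0.15 to 0.22), a limma adjusted p of 0.859, and its sign changed to -0.06 when arrays were centred on their medians. Whether both isoforms differed by unequal amounts was tested on the within-array difference Arpc1b minus Arpc1a, since signals of different probe sets cannot be set against each other. On the GATA-4 arrays it was 1.22 ± 0.18 and on the LacZ arrays 0.59 ± 0.17 (SD, n = 5), a gap of 0.64, and every GATA-4 array lay above every LacZ array. An exact two-sided permutation test gave p = 0.00794, the smallest that 5 against 5 arrays allow, and 0.0238 adjusted over 3 pairs. On these arrays Arpc1b and Arpc1a thus differed in their response by more than the spread between arrays. Arpc1b alone already separated the groups, and the pair was chosen with earlier results of these arrays known. The permutation p therefore adds little to the values of Arpc1b itself.

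Of the core subunits that bind the mother filament, Arpc2 was read by a bright and a dimmer probe set, which disagreed. The dimmer one, 1375137_at, read 9.31, 9.55, 9.49, 9.24 and 9.45 with LacZ and 10.07, 9.93, 9.92, 9.95 and 9.88 with GATA-4. All GATA-4 arrays lay above all LacZ arrays, within a narrow band. It rose by 0.54 (SE 0.09; limma adjusted p = 0.00886), and the call held without any 1 array, with differences of 0.50 to 0.58. The brighter one, 1371511_at, read 11.88, 11.90, 11.78, 11.73 and 11.90 with LacZ and 11.49, 12.11, 12.28, 12.06 and 11.96 with GATA-4. There GATA-4 array 1 was the lowest of all 10 arrays, while the other 4 GATA-4 arrays lay above every LacZ array. Its difference was 0.14 (SE 0.12; limma adjusted p = 0.507) and 0.26 without GATA-4 array 1 (adjusted p = 0.0186), and it was -0.0064 under median centring. Averaged over both probe sets, the difference was 0.34 (limma adjusted p = 0.0285).

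Arpc4, the partner of Arpc2 in the core, read 9.70, 9.29, 9.39, 9.75 and 9.36 with LacZ and 10.07, 9.90, 9.77, 9.59 and 9.56 with GATA-4. Arrays 4 and 5 of the GATA-4 group lay inside the LacZ range. The difference of 0.28 (SE 0.13) had a limma adjusted p of 0.222, and it passed in none of the alternatives.

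Arpc3, which contacts the Arp3 side of the complex, read 11.11, 11.13, 10.91, 11.03 and 11.07 with LacZ and 10.81, 11.65, 11.78, 11.46 and 11.43 with GATA-4. GATA-4 array 1 was the lowest of the 10 arrays, and the other 4 were the highest. The difference was 0.38 (SE 0.14; limma adjusted p = 0.147), and 0.53 without GATA-4 array 1 (adjusted p = 0.00156). Arpc5 had the same order of arrays, with LacZ values of 11.64, 11.52, 11.39, 11.50 and 11.53 and GATA-4 values of 11.19, 12.02, 12.13, 11.89 and 11.80. Here too 1 array set the spread, as the SD was 0.37 with GATA-4 and 0.09 with LacZ (n = 5). The difference of 0.29 (SE 0.14) had a limma adjusted p of 0.248, and was 0.44 without GATA-4 array 1 (adjusted p = 0.00242).

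Actr2, the Arp2 protein that forms the base of the new branch together with Arp3, was read by 3 probe sets of its own. A further probe set listed with a pseudogene was not used. The dimmest, 1375424_at, read 10.67, 10.90, 10.57, 10.98 and 10.49 with LacZ and 10.93, 11.20, 11.18, 11.25 and 11.04 with GATA-4. Its GATA-4 array 1 fell inside the LacZ range and the other 4 above it. It rose by 0.40 (SE 0.10; limma adjusted p = 0.0452), close to the threshold. The call was lost without GATA-4 array 2, 3, 4 or 5 or LacZ array 1, 3 or 5, at adjusted p-values of 0.0705 to 0.129. It was also lost under median centring (difference 0.28, adjusted p = 0.161), without a filter (0.0715), in limma without the trend (0.0900) and without GATA-4 arrays 4 and 5 (0.144). The other Actr2 probe sets, 1389904_at and 1398626_s_at, differed by 0.28 each, at limma adjusted p-values of 0.0966 and 0.111. On these as well GATA-4 arrays 2 to 5 lay above every LacZ array, and GATA-4 array 1 lay among the LacZ arrays. Without GATA-4 array 1 the differences were 0.36 and 0.34 (limma adjusted p of 0.00504 and 0.0177).

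Coro1a, a coronin that binds actin filaments and the Arp2/3 complex in leukocytes, had the widest difference of the members. It read 9.45, 9.75, 9.65, 9.80 and 9.41 with LacZ and 10.14, 10.58, 10.56, 10.25 and 10.22 with GATA-4. The groups did not overlap, and GATA-4 array 1 was the lowest of its group. The means of 10.35 ± 0.20 and 9.61 ± 0.18 (SD, n = 5) differed by 0.74 (SE 0.12; limma adjusted p = 0.00749), and the differences without any 1 array were 0.68 to 0.79, all past the threshold. Groups did not overlap on 3 of the 11 member probe sets, where GATA-4 lay wholly above LacZ on 3.7% of all probe sets tested, and by brightest probe set on 2 of 8 genes against 4.56% of all genes.

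**Figure D2:**
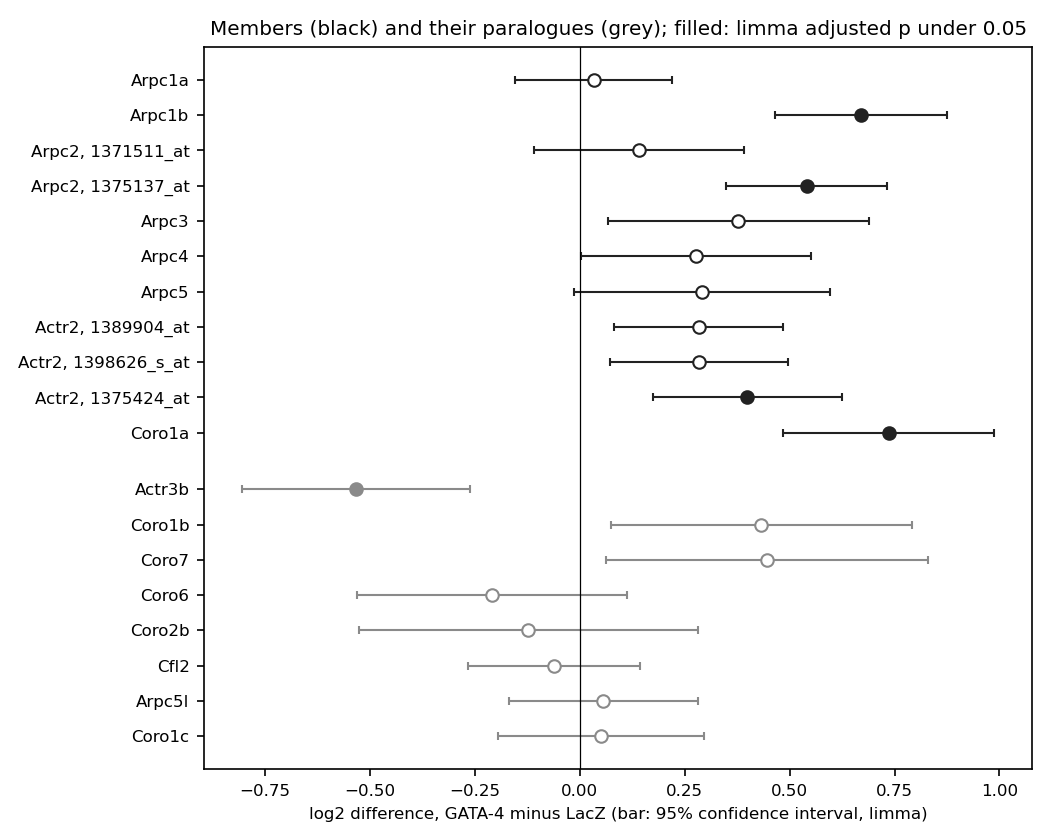
Log2 difference between the GATA-4 and LacZ means (horizontal axis) with its 95% confidence interval from limma, for the 11 member probe sets in black and for 8 paralogues in grey. Filled points passed a limma adjusted p of 0.05: Arpc1b, Coro1a and single probe sets of Arpc2 and Actr2 to the right of 0, and Actr3b to the left.

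The members split by how they read on GATA-4 array 1. It was the lowest of its group on 7 member probe sets, those of Arpc3, Arpc5, Actr2, Coro1a and the bright one of Arpc2. It was the highest on 3, those of Arpc1b, Arpc4 and the dimmer one of Arpc2. On GATA-4 arrays 2 to 5, 9 of 11 probe sets, all but those of Arpc1a and Arpc4, lay above every LacZ array, where 7.76% of all probe sets tested did. Across all 10 arrays, the brightest probe sets of Actr2, Arpc2, Arpc3 and Arpc5 had pairwise Pearson correlations of 0.79 to 0.98, and Arpc1b correlated with these 4 at 0.19 to 0.57. Without GATA-4 array 1 the corresponding values were 0.84 to 0.99 and 0.89 to 0.98, so the separation of Arpc1b from the other subunits rested on that array. After subtraction of the group means, the 4 correlated at 0.77 to 0.99 on all arrays and at 0.24 to 0.93 without GATA-4 array 1. Arpc1b then correlated with them at -0.36 to -0.25 and at 0.51 to 0.86, in the same order. These arrays share the group difference and the normalization, and the groups of subunits were formed after their values were seen. The lower brightness of GATA-4 array 1 moved with this split, and its part in it was not tested. Without that array 9 of the 11 member probe sets rose, where 7.86% of all probe sets did. The array left out had been seen to lie apart, as the lowest of its group on 7 member probe sets and the highest on 3. This count therefore describes GATA-4 arrays 2 to 5 and adds no separate support.

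**Figure D3:**
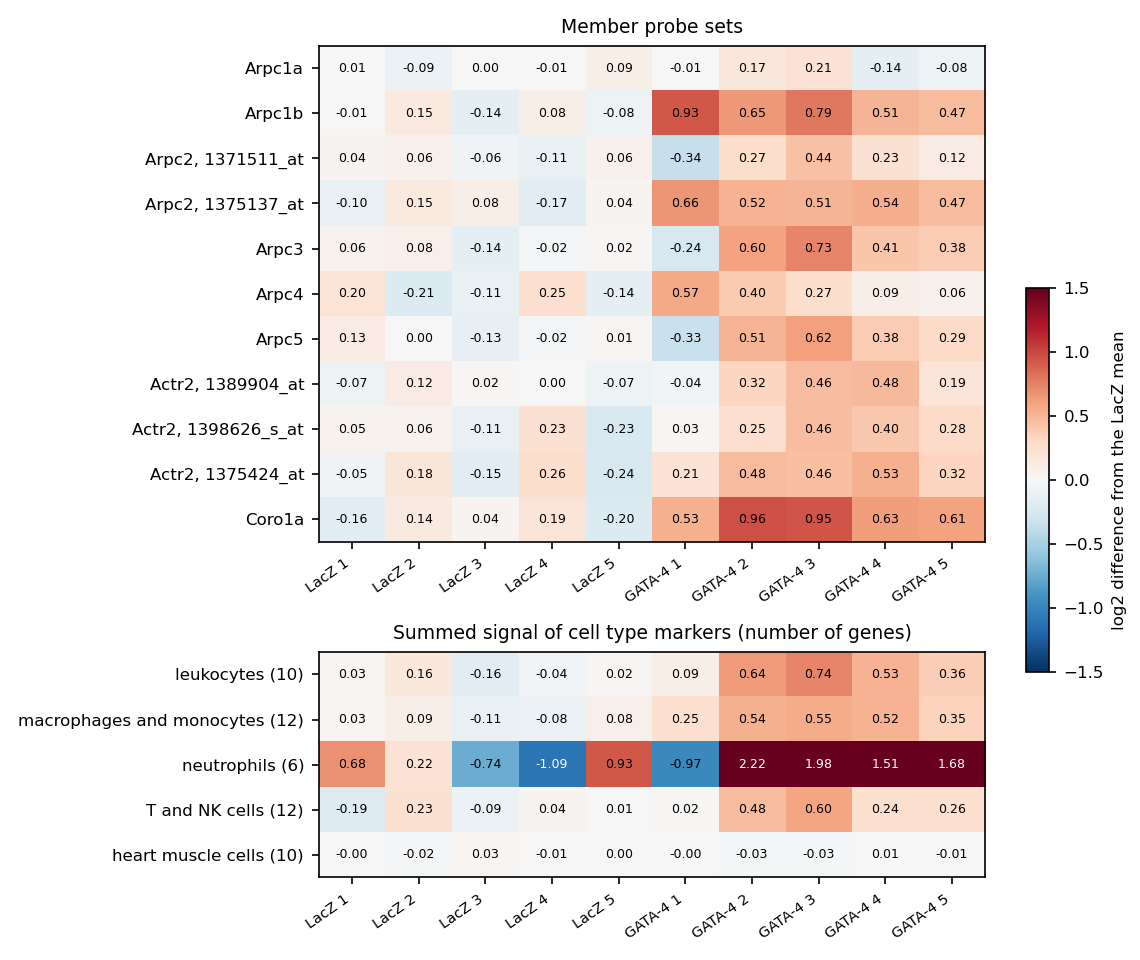
Log2 difference of each array (columns) from the LacZ mean for the 11 member probe sets (upper rows) and for the summed normalized intensity of 5 marker lists (lower rows, number of genes in brackets), with colours saturating at 1.5 in either direction. GATA-4 arrays 2 to 5 are above the LacZ mean on all rows but Arpc1a and heart muscle, while GATA-4 array 1 is below it by 0.24 to 0.34 for Arpc3, Arpc5 and the bright Arpc2 probe set, and is also below it for the neutrophil sum and, by under 0.05, for Arpc1a, 1 Actr2 probe set and the heart muscle sum.

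Some markers of immune cells were also higher with GATA-4. Of 9 leukocyte markers tested 3 rose (Tyrobp, Fcer1g and Laptm5), of 12 macrophage and monocyte markers 6, of 4 neutrophil markers 2, and of 11 T and NK cell markers none in limma (2 had an unadjusted p under 0.05). Of all 10688 genes tested 3.71% rose. The immune marker counts turned on single arrays: without GATA-4 array 1 they were 7, 9, 4 and 2, where 7.86% of all probe sets rose. The leukocyte count was 1 without GATA-4 array 3 or LacZ array 3 or 5. The macrophage count was 2 without LacZ array 3 and 3 without GATA-4 array 4 or LacZ array 1 or 4. The neutrophil count was 0 without any of GATA-4 arrays 2 to 5 or LacZ array 1, 3 or 4, and 1 without LacZ array 5. Under median centring the leukocyte and macrophage counts were 1 and 3, and with the intensities as deposited all 4 counts were 0. Of 7 fibroblast, 5 endothelial and 5 smooth muscle markers none changed in limma (2, 1 and 0 had an unadjusted p under 0.05). Without GATA-4 array 1, 1 fibroblast marker rose, and 1 endothelial and 1 smooth muscle marker fell. The summed intensity of 10 leukocyte markers was 9355 to 11662 with LacZ, 11167 on GATA-4 array 1 and 13468 to 17457 on GATA-4 arrays 2 to 5. For 12 macrophage markers it was 15952 to 18378, 20570 and 21969 to 25302 in the same order. For 6 neutrophil markers it was 246 to 1003, 269 and 1502 to 2454, and for 12 T and NK cell markers 1188 to 1589, 1375 and 1598 to 2050. No marker's mean was at the floor of the scale, and the 2 B cell markers on the array were too dim to be tested. On GATA-4 array 1 the macrophage sum lay above every LacZ array, as did Coro1a, at 10.14, and Arpc1b, at 11.82, and the leukocyte, neutrophil and T and NK cell sums lay within the LacZ range. The part of immune cell number in the members' differences was not tested.

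Among the members' paralogues, 8 of the 9 on the array were tested, and Coro2a was too dim. None rose, 1 fell, and the median difference was -0.0052. Without GATA-4 array 1, 2 of the 8 fell, Actr3b and Coro6, where 1385 of 18625 probe sets did. Coro6 also passed with array weights (difference -0.33, limma adjusted p = 0.0277). Under median centring without GATA-4 array 1 it had -0.42 (limma adjusted p = 0.00919). Actr3b, a second Arp3 gene, read 8.53, 8.70, 8.66, 8.82 and 8.87 with LacZ and 8.50, 8.05, 7.97, 8.03 and 8.36 with GATA-4. The groups did not overlap, as on 4.59% of all probe sets with GATA-4 below, though GATA-4 array 1 lay just under the lowest LacZ array. It fell by 0.53 on the log2 scale (SE 0.13; limma adjusted p = 0.0308), where 2.27% of all probe sets fell. The call was lost without GATA-4 array 2, 3 or 4 or LacZ array 2, 3, 4 or 5, at adjusted p-values of 0.0564 to 0.0834, and without both GATA-4 arrays 4 and 5 (0.0906). Coro1b and Coro7, coronins found in many cell types, had differences of 0.43 and 0.45 at limma adjusted p-values of 0.15 and 0.162. Coro6 and Coro2b differed by -0.21 and -0.12, Cfl2, the cofilin of muscle, by -0.06, Arpc5l by 0.06 and Coro1c by 0.05, with limma adjusted p-values of 0.438 to 0.832. Cfl2, Arpc5l and Coro1c have 2 probe sets each, and these values are of the brighter. The dimmer Arpc5l probe set went the other way, and was lower with GATA-4. Arpc5 minus Arpc5l differed between groups by 0.24 with the brighter Arpc5l probe set and by 0.56 with the mean of both. Arpc5l can therefore not be called unchanged.

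Both other pairs of paralogues that could be compared within an array did not pass. On GATA-4 and LacZ arrays, Arpc5 minus Arpc5l was 1.63 ± 0.49 and 1.40 ± 0.08, and Coro1a minus Coro1b was 1.09 ± 0.48 and 0.78 ± 0.13 (SD, n = 5), with exact permutation p-values of 0.341 and 0.238, each 0.341 after adjustment over the 3 pairs. On GATA-4 array 1 these within-array differences were 0.77 and 0.23, below every other array, and on GATA-4 arrays 2 to 5 they were 1.77 to 1.97 and 1.23 to 1.39, above every LacZ array. Without GATA-4 array 1 the gaps between groups were 0.44 and 0.52, each with an adjusted exact permutation p of 0.00794. That is the smallest p these arrays allow. It follows from the separation already seen once the outlying array is dropped, and adds no support. With the mean of all tested probe sets of a gene, the gap for Arpc5 minus Arpc5l was 0.56 (adjusted exact permutation p = 0.0833). Arpc5 has 1 probe set, so the size of that gap depended on which Arpc5l probe sets were read. The pairs Actr3 with Actr3b and Cfl1 with Cfl2 could not be formed.

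**Figure D4:**
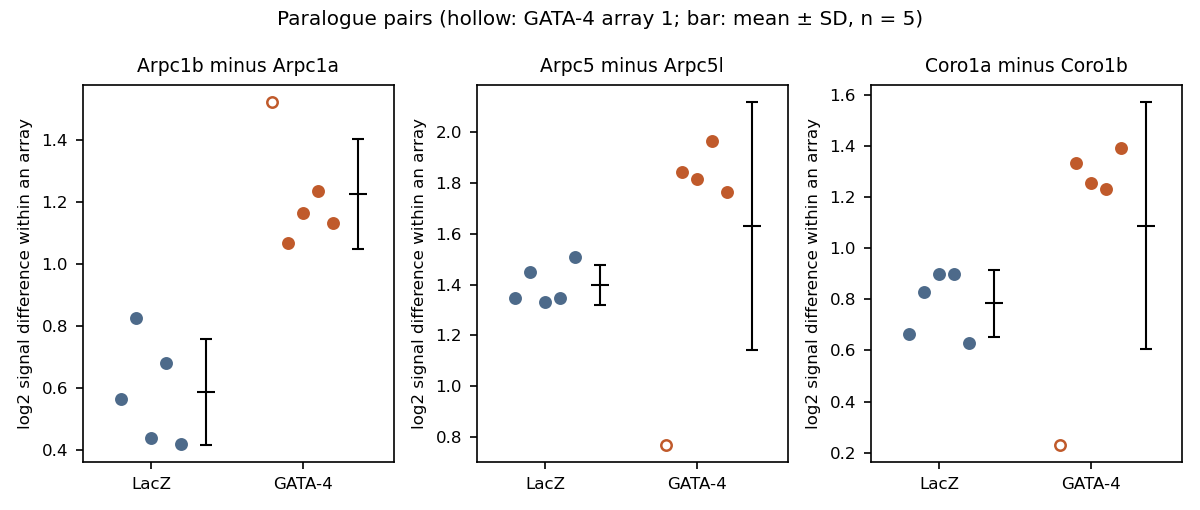
Within-array log2 signal difference between paralogues (vertical axes) on 5 LacZ and 5 GATA-4 arrays, with mean and SD beside the points. Arpc1b minus Arpc1a separates the groups on all arrays, whereas on the other pairs the hollow GATA-4 array 1 lies below the LacZ arrays and the remaining 4 above.

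In the wider actin pathway, paralogues included, 10 of 97 tested genes rose and 1, Actr3b, fell, with a median difference of 0.12, where 6.37% of all genes changed, 3.71% rising and 2.66% falling. The members' partners upstream came first. Of 21 tested activators of the complex 1 rose: Hcls1, the cortactin relative of blood cells, went from 8.24 ± 0.23 to 8.97 ± 0.14 (SD, n = 5), a difference of 0.73 with a limma adjusted p of 0.00995. The list's median was 0.02, and Cyfip1, a subunit of the WAVE complex, had the largest p of the list with a difference of 0.0095. GATA-4 array 1 had a Cyfip1 signal of 9.39 where GATA-4 arrays 2 to 5 had 10.49 to 10.67, and without array 1 its difference was 0.25 (limma adjusted p = 0.0281). Of 4 inhibitors and debranching factors none passed in limma (1 had an unadjusted p under 0.05), and Arpin, an Arp2/3 inhibitor, differed by -0.03.

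Of 12 regulators and partners of cofilin 1 rose: Cap1, which recycles actin monomers together with cofilin, by 0.57 (limma adjusted p = 0.00645). Its second probe set differed by 0.79 and did not pass. The cofilin kinase Tesk1 differed by 0.04, and the list's median was 0.12. Of all genes tested 3.71% rose, and their median difference was -0.017.

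Among proteins that cap filaments or bind monomers 2 of 12 rose, the monomer-binding profilin Pfn1 by 0.45 and the capping protein Capg of macrophages by 0.49 (limma adjusted p of 0.0265 and 0.0331), with a median of 0.14, and Carmil1 differed by -0.02. Among proteins that elongate, bundle or link filaments 4 of 19 rose, with a median of 0.35. For both lists the values over all genes tested were 3.71% rising and a median of -0.017. Fermt3, the kindlin of blood cells that activates integrins, rose by 0.70, the filament crosslinkers Flna and Actn4 by 0.40 and 0.60, and the elongation factor Enah by 0.44 (limma adjusted p of 0.0115 to 0.0455). A second tested Enah probe set differed by 0.81 and did not pass, and Evl, a relative of Enah, differed by -0.0036. Of 4 actins none passed in limma (1 had an unadjusted p under 0.05), and skeletal actin, Acta1, differed by 0.0015. Hcls1, Cap1 and Fermt3 kept their calls without any 1 array. Pfn1, Capg, Flna, Enah and Actn4 missed the threshold in 5 to 8 of the 10 fits that left out 1 array, at adjusted p-values up to 0.115. All 5 missed it without LacZ array 1, 3, 4 or 5, and all but 1 without GATA-4 array 3 (Flna kept its call) or GATA-4 array 4 (Pfn1). Capg and Enah also missed it without LacZ array 2, Capg without GATA-4 array 2, and Flna, Enah and Actn4 without GATA-4 array 5. Median centring ended the calls of Pfn1, Capg, Flna and Enah, limma without the trend those of all 5, no filter those of Enah and Actn4, and leaving out GATA-4 arrays 4 and 5 those of Fermt3, Flna, Enah and Actn4, at adjusted p-values of 0.0508 to 0.175. The count of changed pathway genes, 11, was 28 without GATA-4 array 1, 5 without GATA-4 array 3 or 4 or LacZ array 1 or 4, 4 without LacZ array 3 or 5, and 5 with the 8 arrays of adjoining sample numbers alone. Changed probe sets over the whole array moved the same way. Of 18625 tested they were 988, 2849 without GATA-4 array 1 and 201 with those 8 arrays alone. They were also fewer than 988 in the other fits named here.

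Over the 10 arrays and 10688 genes, the genes outside the members whose signal was most like that of Arpc1b were Arhgdib, Sh3bgrl3 and Tapbp, at Pearson correlations of 0.979, 0.978 and 0.976. Without GATA-4 array 1 they were 0.973, 0.969 and 0.968. For Coro1a they were Pdia6, Gnb4 and Atp13a2, at 0.979, 0.97 and 0.961. After subtraction of the group means the 6 correlations were 0.85 to 0.89. These describe likeness on arrays that share the group difference, and carry no test.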

How the data were processed

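The authors deposited 1 table of probe set intensities on a linear scale for 10 arrays, which the submitters' processing notes credit to GCOS, the Affymetrix software. The sources used here do not state its algorithm or scaling. GEO's platform annotation named the probe sets (20826 with 1 gene, 436 with several, which were not named), with symbols updated by gene ID from RefSeq (20758 matched). Intensities were taken to log2, quantile normalized over 31042 probe sets without the 57 controls, and floored at a log2 of 0. Probe sets with a mean above the 40th percentile were fitted with limma 3.58.1 in R 4.3.3 (intensity trend, no covariates), adjusted by the Benjamini-Hochberg method over all 18625 tested. The fit was tested on simulated data. P-values measure the spread between these samples, whose number limits the precision. Groups follow the source labels, since titles name GATA-4 on all arrays. A gene's brightest probe set stood for it in lists.

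The members, lists and tests were chosen with earlier results of these data known. From each pathway list, up to 4 changed genes of smallest p and the gene of largest p are named, with all members and paralogues. The genes of 1 list are in the pathway total and are not reported here. Alternatives were the intensities as deposited, median centring, an added 16, a floor at the 20th percentile, other filters (none, 60th percentile), limma without the trend, robust or with array weights (statmod 1.5.0), means over probe sets, and arrays left out. The planned comparison of member proteins was not made, as no protein sequences were used here.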

Additional observations from a re-analysis of the deposited data

Results flagged for a closer look

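In 30 groups of 5 arrays checked for a value far from the others by Dixon's criterion, which chance meets in about 1 of 20 groups, 3 were found. On GATA-4 array 1 the within-array difference Arpc5 minus Arpc5l was 0.767, where the next lowest GATA-4 array had 1.77. On the same array Coro1a minus Coro1b was 0.230, where the next lowest had 1.23. LacZ array 2 had a trimmed mean intensity of 314 before normalization, above the 263 of the next LacZ array.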

How the results depend on the processing

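No paired analysis was possible because the labels give the groups no shared replicate numbers. Arpc1b, Coro1a and the dimmer Arpc2 probe set kept direction and call in 20 of 21 alternatives each, the exception being the intensities as deposited. Of 33 named probe sets 21 kept their direction throughout. As deposited, 9 probe sets changed, with 0 members and 0 pathway genes. Median centring left 6 pathway genes, and limma without the trend 5. Changed probe sets numbered 619 without a filter and 539 without the trend. Array weights gave 2890 probe sets, 8 member probe sets and 28 pathway genes. Without GATA-4 arrays 4 and 5 there were 201 probe sets and 5 pathway genes. Arpc1b minus Arpc1a was then 0.67 and did not pass, at an adjusted exact permutation p of 0.0536. Both other pairs had 0.875. Median centring without GATA-4 array 1 gave 2616 probe sets, 22 pathway genes, and 0.38 and 0.48 for Arpc5 minus Arpc5l and Coro1a minus Coro1b. Both pairs passed the threshold, at the smallest p those arrays allow. With single arrays left out the counts ran from 174 (LacZ array 3) to 2849 (GATA-4 array 1), 3 to 9 and 4 to 28, and these 2 pairs from 0.15 to 0.44 and from 0.23 to 0.52. They were 341 without GATA-4 array 3, 558 and 539 without GATA-4 arrays 4 and 5, and 384, 391 and 323 without LacZ arrays 1, 4 and 5.

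Signs changed only for differences that passed in neither setting. As deposited, in the order Arpc1a, Arpc2 (bright), Arpc5l, Coro1c, Cyfip1 and Acta1, they were -0.054, -0.0039, -0.017, -0.018, -0.085 and -0.076, and under median centring -0.057, -0.0064, -0.019, -0.021, -0.088 and -0.079. With array weights Arpc5l had -0.011, Cfl2 0.0031, Tesk1 -0.11 and Carmil1 0.080. Without GATA-4 arrays 4 and 5 Cyfip1 had -0.12, Arpin 0.095 and Evl 0.061. Under median centring without GATA-4 array 1 Arpc1a had -0.029, Arpc5l -0.062, Acta1 -0.18, Tesk1 -0.11, Carmil1 0.13 and Evl 0.012. With single arrays left out the ranges were -0.013 to 0.075 for Arpc1a, -0.0056 to 0.12 for Arpc5l, -0.0093 to 0.14 for Coro1c, -0.073 to 0.25 for Cyfip1, -0.031 to 0.032 for Acta1, -0.11 to 0.030 for Cfl2, -0.12 to 0.10 for Tesk1, -0.095 to 0.12 for Carmil1, -0.10 to 0.038 for Arpin, -0.087 to 0.023 for Evl and -0.26 to 0.013 for Coro2b. The causes were not tested.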
